A study of Homo sapiens with 18 samples.

Results

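The genes described here are 56 genes of DNA replication and of the E2F program, chosen by name for their roles and looked up by gene symbol among the 60603 genes listed in each of the 2 count tables of the study. All 56 were found in both tables and all 56 passed the filter on low counts in both. The genes fall into 7 roles. Origin licensing holds 10 genes, helicase activation 7, the replicative polymerases 9, the clamp, its loader and strand processing 11, deoxynucleotide supply 4, E2F factors and G1/S drivers 8, and fork protection and chromatin assembly 7.

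Poly(A) RNA was sequenced from MDA-MB-231, a human triple-negative breast adenocarcinoma cell line, to ask how overexpression of ZMYND8, a chromatin reader and transcriptional corepressor, alters the response to doxorubicin, a topoisomerase II poison. In the transient system (6 libraries) cells were transfected with empty vector or FLAG-ZMYND8 and, from 24 h later, given vehicle or 0.6 µM doxorubicin for 48 h. The conditions were Control (labelled untreated), DOX (doxorubicin without ZMYND8) and ZMYND8_DOX (labelled as FLAG-ZMYND8 with doxorubicin). In the inducible system (12 libraries) pInducer20 lentiviral constructs for GFP or ZMYND8 were integrated under G418 selection and all cells received 250 ng/mL doxycycline. The conditions were GFP and ZMYND8 without doxorubicin, GFP_6h and ZMYND8_6h after 6 h, and GFP_48h and ZMYND8_48h after 48 h of 0.6 µM doxorubicin, begun 4 h after doxycycline. Each condition had 2 libraries, described as biological replicates. Each construct was carried by 1 selected population, so the construct and the population that carries it cannot be told apart.

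The depth was 5729294 to 24713822 counts per library in the transient system, and 18300628 to 23724398 in the inducible system. The second DOX library was the deepest, and the other transient libraries held 5972396 counts or fewer. ZMYND8 mRNA checked the labels. It stood at 209 and 208 CPM (counts scaled to the size of each library, TMM-normalised) in the 2 GFP libraries and at 922 and 927 in the 2 ZMYND8 libraries. In the transient system it stood at 219 and 199 in Control, 182 and 123 in DOX and 159.8 and 125 in ZMYND8_DOX (log2 fold change of ZMYND8_DOX against DOX -0.09, SE 0.23, adjusted p = 1.00). The libraries are therefore called by their label, ZMYND8_DOX, which their ZMYND8 mRNA goes against. Counts of the second DOX and the second ZMYND8_DOX library lay close together: their chi-square, divided by its degrees of freedom, was 1.39, against 10.7 to 22.7 for the libraries of the same transient condition, so transient results are also given without both. All 5 markers of MDA-MB-231 cells (VIM, CD44, EGFR, AXL, CAV1) were at 1 CPM or more in every library. At that level in every transient library were 2 of 5 luminal, 1 of 4 blood, 0 of 3 endothelial and 3 of 5 fibroblast markers. In the inducible libraries these were 2, 1, 0 and 2. PGR, CD3E and CDH5 had at most 3 counts in every transient library, but not in every inducible library. Summed CPM of the other lists ranged from 29.0 to 58.3 for luminal markers, from 2.14 to 21.4 for blood markers, from 1.04 to 6.3 for endothelial markers and from 8.82 to 109 for fibroblast markers, and their part in the results was not tested.

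Eukaryotic DNA is copied once per cycle. In G1 the origin recognition complex, CDC6 and CDT1 load MCM2-7 rings on DNA (licensing), and in S phase CDC45 and the GINS complex turn each ring into an active helicase on which the polymerases, the sliding clamp PCNA and its loader RFC assemble. Transcription of most of these genes is set by E2F factors: RB holds E2F in check until cyclin-dependent kinases phosphorylate it, E2F1 to E2F3 then activate, and E2F7 and E2F8 repress again later in S phase. In bulk RNA, a changed share of cells in S phase and a changed amount of RNA per cell cannot be told apart.

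Promoters of 4 members are printed because they carry, or lack, the short E2F words that were counted over all the genes. The windows run from 250 bases before to 50 bases after the gene start, 5′ to 3′ on the gene's strand, and come from RefSeq (GRCh38.p14). Capitals mark the E2F words TTTCCCGC, TTTCGCGC, TTTGCCGC and TTTGGCGC, searched on both strands; none contains another. E2F1 (chr20:33686336-33686635, minus strand) has matches that begin 33 and 20 bases before the start, CDC6 (chr17:40287629-40287928, plus strand) has 1 that begins 7 bases after it, POLE2 (chr14:49688165-49688464, minus strand) has 1 that begins 5 bases before it, and MCM10 (chr10:13161308-13161607, plus strand) has 0. The annotation of the count tables (GENCODE, hg38) places these genes at chr20:33675477-33686385, chr17:40287879-40304657, chr14:49643555-49688422 and chr10:13161554-13211104. For POLE2 that gene begins upstream of the RefSeq start, so most of the window lies within the annotated gene, its match included.
E2F1: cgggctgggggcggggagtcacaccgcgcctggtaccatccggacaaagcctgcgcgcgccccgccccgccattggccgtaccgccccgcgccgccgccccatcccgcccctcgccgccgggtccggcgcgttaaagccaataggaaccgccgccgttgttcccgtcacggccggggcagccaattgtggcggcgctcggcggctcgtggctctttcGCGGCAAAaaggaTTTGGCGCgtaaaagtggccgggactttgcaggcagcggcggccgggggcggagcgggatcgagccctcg
CDC6: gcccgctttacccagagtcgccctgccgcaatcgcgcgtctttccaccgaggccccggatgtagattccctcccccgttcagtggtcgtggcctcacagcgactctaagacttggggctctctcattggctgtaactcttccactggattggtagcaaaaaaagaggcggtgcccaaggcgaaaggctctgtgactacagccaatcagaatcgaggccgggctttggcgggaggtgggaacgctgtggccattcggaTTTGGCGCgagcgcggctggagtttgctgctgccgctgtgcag
POLE2: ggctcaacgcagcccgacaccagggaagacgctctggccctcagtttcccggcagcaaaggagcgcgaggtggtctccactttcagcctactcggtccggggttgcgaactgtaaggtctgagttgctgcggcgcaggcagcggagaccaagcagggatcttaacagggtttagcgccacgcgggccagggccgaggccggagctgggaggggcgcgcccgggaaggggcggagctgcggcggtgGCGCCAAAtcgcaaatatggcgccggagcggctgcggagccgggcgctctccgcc
MCM10: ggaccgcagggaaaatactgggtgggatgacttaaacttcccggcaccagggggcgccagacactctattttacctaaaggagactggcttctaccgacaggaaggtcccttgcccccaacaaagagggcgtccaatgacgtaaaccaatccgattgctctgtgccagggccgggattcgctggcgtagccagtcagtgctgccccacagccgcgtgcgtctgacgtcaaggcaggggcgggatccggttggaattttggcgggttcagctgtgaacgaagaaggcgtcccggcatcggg
RefSeq windows were matched for 47 of the 56 genes and not for POLD3, MCM5, RPA2, MCM4, DNA2, RPA3, CCNE2, E2F8 and GINS4. An E2F word stood in 24 of the 47 windows (51.1%), against 635 of 12575 windows of all genes tested in the inducible table (5.05%) and 3.31% of all 35116 windows. By role, 6 of 8 licensing windows (75%) and 1 of 4 deoxynucleotide supply windows (25%) had one. CCAAT stood in 29 of the 47 (61.7%), against 36.1% of the windows of genes tested. The CHR words TTTGAA and TTCGAA, known from genes of G2 and mitosis, stood in 3 of the 47 (6.38%), against 11.6%. A match is a description of the letters and not a bound site.

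**Figure D1:**
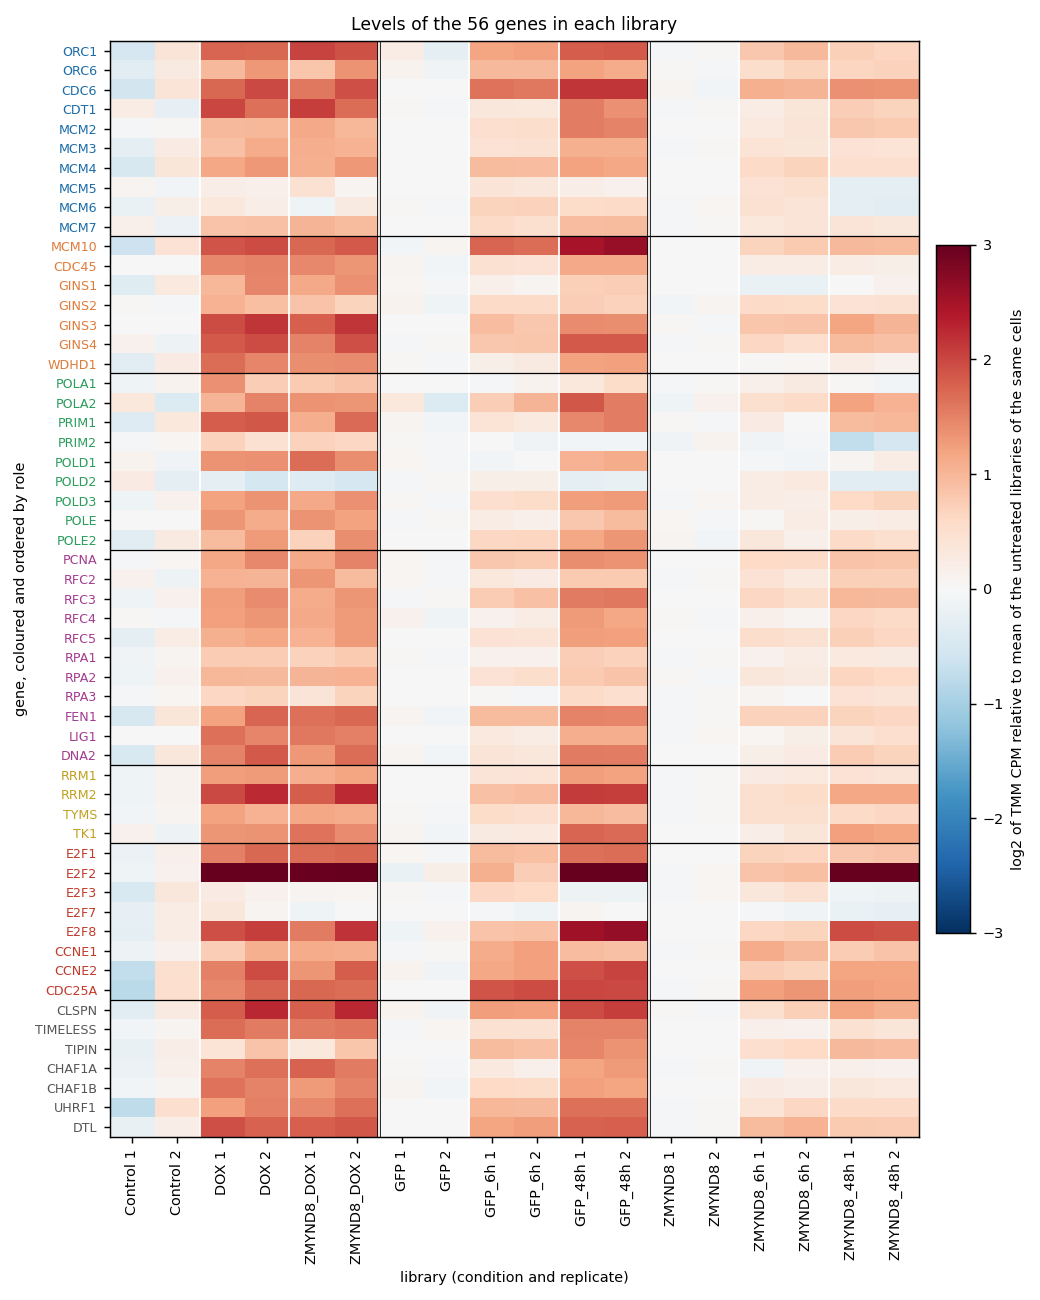
Levels of the 56 genes (rows, coloured by role) in each of the 18 libraries (columns), as log2 of TMM-normalised CPM minus log2 of the mean of the untreated libraries of the same cells. The colour scale ends at 3. DOX, ZMYND8_DOX and GFP_48h columns are red in nearly every row, ZMYND8_48h columns are paler, and MCM5, MCM6, PRIM2, POLD2, E2F3 and E2F7 are pale in most columns.

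The first comparison asked what 48 h of doxorubicin did to these genes in cells without added ZMYND8. In the transient system 46 of the 56 genes rose in DOX against Control, 0 fell and 10 did not pass, at an adjusted p of at most 0.05 (edgeR quasi-likelihood test, Benjamini-Hochberg over 15697 genes). Over all genes tested, 2.98% were called higher and 2.15% lower. The median member changed 2.48-fold (log2 fold change 1.31, against -3.8e-04 over all genes), and 53 of 56 had both DOX libraries above both Control libraries, as had 25.6% of all genes tested. The 3 highest were E2F2, an activating E2F, with 3.12 (SE 0.27, adjusted p = 0.0026), RRM2, the regulatory subunit of ribonucleotide reductase, with 2.12 (SE 0.23, adjusted p = 0.0046), and CLSPN (claspin), which carries the checkpoint signal to CHK1, with 2.06 (SE 0.27, adjusted p = 0.0049). At the other end stood POLD2, a polymerase delta subunit, with -0.41 (SE 0.22, adjusted p = 0.31), MCM5 with 0.17 (SE 0.20, adjusted p = 0.68) and E2F3 with 0.18 (SE 0.26, adjusted p = 0.74). The remaining members that did not pass were MCM6, PRIM2, POLE2, RPA3, E2F7, CCNE1 and TIPIN.

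Libraries weigh on these counts. For fits with libraries left out, here and below, the share of all genes called is not given. Fewer calls there cannot be told apart from fewer calls over all genes. Without the second DOX library 22 members were called, and without both second libraries that resemble each other 34 were. With the replicate number as a block 49 were called, POLE2, RPA3 and CCNE1 in addition, while 7.54% of all genes were called higher. TMM scaling centres the bulk of genes, and with total counts the median of all genes moved to 0.15, the calls over all genes went from 468 higher and 337 lower to 676 and 191, and 47 members rose. Transient counts do not separate the strands: for genes lying within exons of a well-expressed gene on the other strand, the density of counts was 1.5 to 1.7 times that of the host gene, against 0.0631 to 0.104 in the inducible system. Of the 56 members, 20 share exon bases with a gene on the other strand, the most in TYMS (47.5% of its exon bases, with ENOSF1 and TYMSOS), CCNE2 (37.1%, with INTS8), MCM2 (23.6%) and GINS4 (23.4%), so their transient values may hold reads of the partner.

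Licensing factors rose in 8 of 10 cases in DOX, with a median log2 fold change of 1.08, and MCM5 and MCM6 were the exceptions. CDC6, which loads the MCM rings, stood at 35.1 and 67.2 CPM in the 2 Control libraries, at 168 and 203 in DOX and at 154 and 197 in ZMYND8_DOX. All treated libraries lay above both Controls (log2 fold change in DOX 1.86, SE 0.29, adjusted p = 0.0088). MCM2, a subunit of the ring, stood at 89.3 and 93.4 CPM in Control, 179 and 182 in DOX and 201 and 181 in ZMYND8_DOX, again without overlap (log2 fold change in DOX 0.98, SE 0.19, adjusted p = 0.017). All 7 helicase activation genes rose, with a median of 1.56. MCM10, which helps to activate the loaded helicase, went from 10.9 and 22.8 CPM in Control to 61.8 and 65.4 in DOX and 55.5 and 60.1 in ZMYND8_DOX, the lowest treated library being above the higher Control (log2 fold change in DOX 1.91, SE 0.30, adjusted p = 0.0087). GINS2, a subunit of the GINS complex, went from 15.3 and 14.4 CPM in Control to 30.4 and 27.9 in DOX and to 26.7 and 23.6 in ZMYND8_DOX. It passed in DOX (0.97, SE 0.23, adjusted p = 0.036) and not in ZMYND8_DOX (0.76, SE 0.23, adjusted p = 0.069).

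Of the 9 polymerase genes 6 rose in DOX, with a median of 1.22, and PRIM2, POLD2 and POLE2 did not pass. POLE2, the second subunit of polymerase epsilon, stood at 8.59 and 12.9 CPM in Control, 20.8 and 26.0 in DOX and 17.4 and 28.2 in ZMYND8_DOX. The groups did not overlap, but the change did not pass (log2 fold change 1.13, SE 0.31, adjusted p = 0.061). Of the clamp, loader and strand processing genes 10 of 11 rose, with a median of 1.29. PCNA, the sliding clamp, stood at 109 and 119 CPM in Control, 255 and 310.2 in DOX and 251 and 318 in ZMYND8_DOX (log2 fold change in DOX 1.31, SE 0.21, adjusted p = 0.0093). RFC3, a subunit of its loader, was at 22.9 and 27.5 CPM in Control, at 60.1 and 66.9 in DOX and at 54.3 and 63.4 in ZMYND8_DOX (log2 fold change in DOX 1.33, SE 0.22, adjusted p = 0.0092). RPA3, the smallest subunit of the single-strand binding protein, was the 1 member of this group that did not pass. It was at 28.6 and 30.8 CPM in Control, at 45.8 and 47.4 in DOX and at 39.1 and 47.1 in ZMYND8_DOX (log2 fold change in DOX 0.65, SE 0.21, adjusted p = 0.097), although its Control libraries were the lowest.

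All 4 genes of deoxynucleotide supply rose in DOX, with a median of 1.30. RRM2 stood at 71.4 and 84.0 CPM in Control, 308 and 367 in DOX and 273 and 365 in ZMYND8_DOX, each treated library more than 3 times above each Control. TYMS, the thymidylate synthase, was at 169.6 and 191 CPM in Control, at 419.7 and 373 in DOX and at 401 and 388 in ZMYND8_DOX (log2 fold change in DOX 1.14, SE 0.20, adjusted p = 0.012), with the strand limit given above. Among E2F factors and G1/S drivers 5 of 8 rose, with a median of 1.61. E2F1 stood at 59.5 and 74.5 CPM in Control, 192 and 220.1 in DOX and 213 and 220.3 in ZMYND8_DOX (log2 fold change in DOX 1.62, SE 0.21, adjusted p = 0.0049).

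Of the 2 repressor E2Fs, E2F8 rose and E2F7 did not pass. E2F8 went from 12.6 and 17.6 CPM in Control to 58.0 and 63.2 in DOX and 44.3 and 68.0 in ZMYND8_DOX (log2 fold change in DOX 2.00, SE 0.27, adjusted p = 0.0051). E2F7 stood at 106 and 147 CPM in Control, at 159.9 and 134 in DOX and at 117 and 125 in ZMYND8_DOX, with overlapping groups (log2 fold change in DOX 0.22, SE 0.21, adjusted p = 0.61). CCNE2, a cyclin E that activates CDK2, was at 6.49 and 15.1 CPM in Control, at 30.9 and 42.2 in DOX and at 26.9 and 37.9 in ZMYND8_DOX and rose (log2 fold change in DOX 1.76, SE 0.36, adjusted p = 0.021), with the strand limit given above. CDC25A, the phosphatase that removes inhibitory phosphates from CDK2, was at 9.54 and 23.8 CPM in Control, at 45.0 and 56.4 in DOX and at 55.5 and 53.5 in ZMYND8_DOX (log2 fold change in DOX 1.6, SE 0.34, adjusted p = 0.026). In E2F8, CCNE2 and CDC25A the second Control library was the higher Control and lay below every treated library.

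Fork protection and chromatin assembly genes rose in 6 of 7 cases, with a median of 1.57, and TIPIN did not pass. CLSPN stood at 28.6 and 43.3 CPM in Control, 127 and 173 in DOX and 124 and 174 in ZMYND8_DOX. UHRF1, which guides maintenance methylation behind the fork, stood at 12.4 and 29.8 CPM in Control, at 49.5 and 60.1 in DOX and at 57.7 and 66.5 in ZMYND8_DOX (log2 fold change in DOX 1.38, SE 0.33, adjusted p = 0.039). For both genes the treated libraries were all above the Controls.

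**Figure D2:**
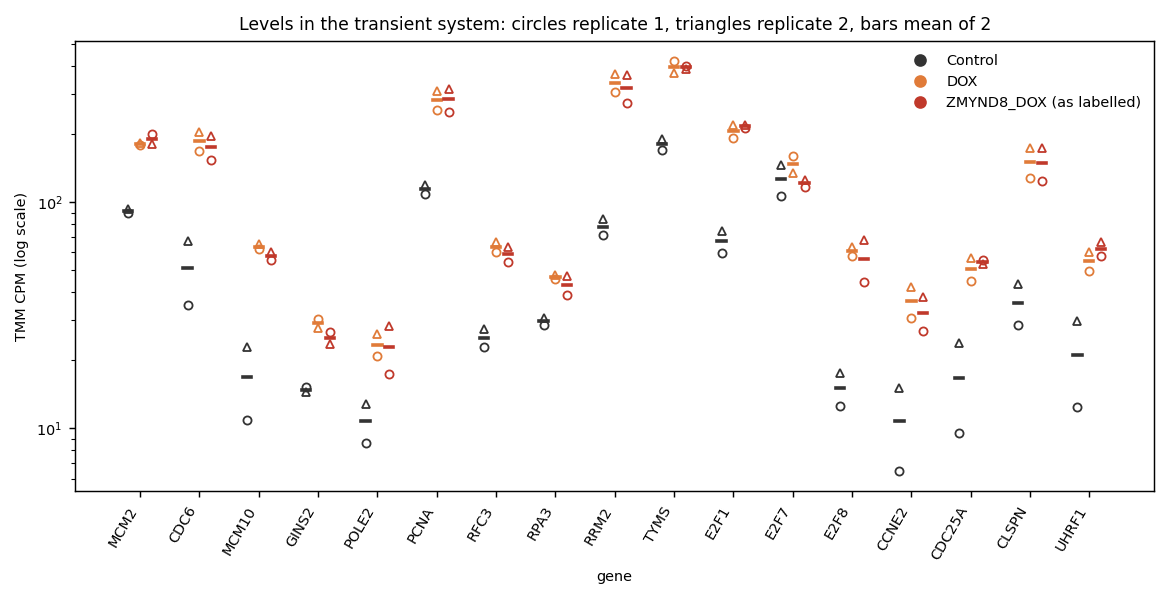
TMM-normalised CPM (log axis) of 17 members in the 6 transient libraries; circles are replicate 1, triangles replicate 2 and bars the mean of 2. Treated symbols lie above the Control symbols for each gene except E2F7, and DOX and ZMYND8_DOX symbols intermingle.

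The libraries labelled ZMYND8_DOX were compared with the same Control libraries. Against Control, 45 members were higher, 0 lower and 11 not called, with a median log2 fold change of 1.30 (2.47-fold), while 3.85% of all genes were called higher and 2.97% lower. E2F2 (3.02, SE 0.27, adjusted p = 0.0039), CLSPN (2.05, SE 0.27, adjusted p = 0.0048) and RRM2 (2.04, SE 0.23, adjusted p = 0.0039) stood highest. POLD2 (-0.44, SE 0.23, adjusted p = 0.26), E2F7 (-0.06, SE 0.22, adjusted p = 0.89) and E2F3 (0.07, SE 0.26, adjusted p = 0.91) stood lowest. Without the first or the second ZMYND8_DOX library 24 members were called, without both second libraries 32, and with the block 49, while 8.96% of all genes were then called higher. Set against DOX itself, 0 of the 56 members and 0 of all genes tested (0%) passed with edgeR, and DESeq2 and the block gave 0 as well. At an unadjusted p of at most 0.05 there were 54 genes (0.344% of those tested), and 0 of them were members. In log2 fold change the members ran from PRIM1 (-0.42, SE 0.30), E2F7 (-0.28, SE 0.21) and POLA1 (-0.24, SE 0.25) up to TK1 (0.20, SE 0.20), POLD1 (0.20, SE 0.19) and ORC1 (0.24, SE 0.26), with a median of -0.03. Since ZMYND8 mRNA was not raised in these libraries, the comparison does not bear on higher ZMYND8 mRNA.

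The inducible system followed the same genes at 6 h and 48 h. The untreated cells of each line were the baseline for both times. Doxorubicin began 4 h after doxycycline, so time in doxorubicin, in culture and since doxycycline cannot be told apart. In GFP cells 50 of the 56 members had already risen after 6 h and 0 had fallen, with a median of 1.45-fold (log2 fold change 0.54), while 22.1% of all 18801 genes tested were called higher and 25.8% lower. CDC25A (1.92, SE 0.06, adjusted p = 4.5e-19), MCM10 (1.72, SE 0.07, adjusted p = 8.0e-17) and CDC6 (1.6, SE 0.05, adjusted p = 7.9e-19) rose most. Genes not called were E2F7 (-0.09, SE 0.05, adjusted p = 0.11), PRIM2 (-0.04, SE 0.08, adjusted p = 0.68), POLD1 (-0.04, SE 0.07, adjusted p = 0.69), RPA3, POLA1 and GINS1. By role the early medians were 0.92 for E2F factors and G1/S drivers (7 of 8 higher), 0.91 for fork protection and chromatin (7 of 7), 0.61 for licensing (10 of 10) and 0.58 for helicase activation (6 of 7). They were 0.46 for deoxynucleotide supply (4 of 4), 0.36 for the clamp group (10 of 11) and 0.19 for the polymerases (6 of 9).

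After 48 h in GFP cells 52 members were higher, 2 lower and 2 not called, with a median of 2.36-fold (log2 fold change 1.24), while 32.4% of all genes were called higher and 31.8% lower. E2F2 (3.25, SE 0.10, adjusted p = 6.8e-20), E2F8 (2.59, SE 0.07, adjusted p = 1.5e-21) and MCM10 (2.54, SE 0.07, adjusted p = 1.2e-21) stood highest. POLD2 (-0.25, SE 0.04, adjusted p = 1.0e-05) and E2F3 (-0.14, SE 0.06, adjusted p = 0.029) were the 2 called lower with TMM, but with total counts POLD2 was at -0.00 and E2F3 at 0.10, and neither passed. PRIM2 (-0.09, SE 0.07, adjusted p = 0.3) and E2F7 did not pass. Total counts moved the median of all genes to 0.27 here, to 0.28 between the times, and in ZMYND8 cells to 0.25 at 48 h and 0.32 between the times. The calls over all genes at 48 h in GFP cells went from 6091 higher and 5986 lower to 8503 and 3987, and those of the members to 53 and 0. All 46 members that rose in DOX against Control also rose here, in libraries of the other system. Since 92.9% of the members rose here, most of any 46 of them would have done so. The same overlap over all genes is not given. The median by role was 1.82 for E2F factors and G1/S drivers, 1.49 for fork protection and chromatin, 1.47 for deoxynucleotide supply, 1.23 for helicase activation, 1.22 for the clamp group, 1.17 for licensing and 1.08 for the polymerases.

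Between 6 h and 48 h the GFP cells, compared directly, had 48 members higher, 5 lower and 3 not called, with a median of 1.55-fold (log2 fold change 0.63), while 32.0% of all genes were called higher and 30.2% lower. E2F2 (2.34, SE 0.09, adjusted p = 1.8e-17), E2F8 (1.72, SE 0.06, adjusted p = 2.8e-18) and TK1, the cytosolic thymidine kinase (1.45, SE 0.05, adjusted p = 3.9e-19), gained most. CDC25A (0.07, SE 0.05, adjusted p = 0.26), GINS2 and PRIM2 did not pass. E2F3 (-0.76, SE 0.05, adjusted p = 1.9e-12) and POLD2 (-0.43, SE 0.04, adjusted p = 1.1e-09) went down under every scaling tried. CCNE1 (-0.27, SE 0.09, adjusted p = 0.0091), MCM5 (-0.19, SE 0.04, adjusted p = 5.6e-04) and MCM6 were called lower with TMM but stood at -0.03, 0.06 and 0.14 with total counts, the last being past the threshold as higher. These 3 time comparisons share libraries and are not independent of each other.

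**Figure D3:**
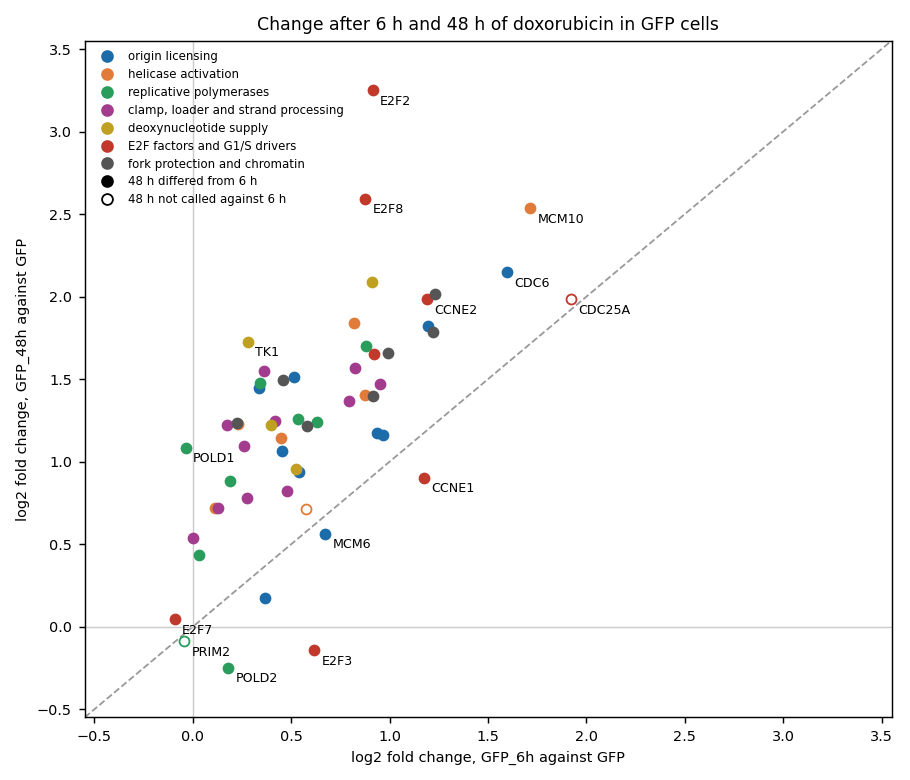
Log2 fold change of each member in GFP cells after 6 h (x axis) and after 48 h (y axis) of doxorubicin, coloured by role; filled points differed between the times at an adjusted p of at most 0.05 and the dashed line marks equal change. Most points lie above the line, CDC25A lies on it (1.92 and 1.98), and E2F3, POLD2, CCNE1, MCM5 and MCM6 lie below it with TMM (with total counts MCM5 and MCM6 lie above it, E2F3 at 48 h is 0.10 and POLD2 is -0.00).

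In ZMYND8 cells the same treatment moved most of these genes in the same direction. After 6 h 43 members were higher, 1 lower and 12 not called, with a median of 1.31-fold (log2 fold change 0.39), while 21.8% of all genes were called higher and 19.0% lower. CDC25A (1.27, SE 0.06, adjusted p = 7.3e-16), CCNE1 (1.04, SE 0.08, adjusted p = 7.6e-11) and CDC6 (1.04, SE 0.05, adjusted p = 1.2e-15) rose most and GINS1 fell (-0.20, SE 0.06, adjusted p = 0.0098), while PRIM2 (-0.09, SE 0.07, adjusted p = 0.34) and E2F7 (-0.07, SE 0.04, adjusted p = 0.19) did not pass. With total counts 36 were higher and 2 lower, and over all genes 3003 and 4568 in place of 4102 and 3572. After 48 h 48 members were higher, 6 lower and 2 not called, with a median of 1.54-fold (log2 fold change 0.63), while 31.6% of all genes were called higher and 30.8% lower. E2F2 (2.98, SE 0.11, adjusted p = 3.5e-18), E2F8 (1.94, SE 0.07, adjusted p = 4.6e-19) and CDC6 (1.36, SE 0.05, adjusted p = 2.0e-19) rose most.

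PRIM2, the large primase subunit, fell in ZMYND8 cells from 48.0 and 55.5 CPM to 30.9 and 36.3 after 48 h (-0.63, SE 0.07, adjusted p = 3.0e-08), with POLD2 (-0.33, SE 0.04, adjusted p = 8.5e-08) also lower. MCM6 (-0.32, SE 0.05, adjusted p = 6.0e-06), MCM5, E2F7 and E2F3 were called lower with TMM and with RLE, another scaling. With total counts they stood at -0.12, -0.09, -0.01 and 0.06 and did not pass. From 6 h to 48 h 33 members were higher, 10 lower and 13 not called (median log2 fold change 0.20), while 30.2% of all genes were called higher and 31.3% lower. Total counts moved the calls over all genes from 5671 higher and 5889 lower to 9077 and 3170. Of the members 47 were then higher and 5 lower, which moves the share of higher calls from 76.7% to 90.4%. E2F2 (2.11, SE 0.10, adjusted p = 7.5e-16), E2F8 (1.29, SE 0.06, adjusted p = 8.2e-16) and TK1 (0.93, SE 0.05, adjusted p = 3.3e-15) were highest, and MCM5 (-0.76, SE 0.05, adjusted p = 1.8e-13), MCM6 (-0.75, SE 0.05, adjusted p = 7.6e-13) and POLD2 (-0.58, SE 0.04, adjusted p = 1.9e-12) were lowest. E2F7 went from -0.14 with TMM to 0.14 with total counts, past the threshold both times, MCM4 likewise went from -0.12 to 0.17, and DTL, CCNE1 and POLA1 also changed sign.

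PRIM2, POLD2, E2F3 and E2F7 were the members that did not rise in DOX, GFP_48h or ZMYND8_48h with TMM scaling.

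Without doxorubicin the ZMYND8 and GFP cells already differed. Of the members 32 were higher in ZMYND8 cells, 12 lower and 12 not called, with a median log2 fold change of 0.28, while 28.7% of all genes were called higher and 29.5% lower. MCM10 (1.43, SE 0.07, adjusted p = 1.8e-15), POLA1, the catalytic subunit of polymerase alpha (1.22, SE 0.08, adjusted p = 1.2e-13), and CCNE1, the other cyclin E (1.04, SE 0.10, adjusted p = 9.9e-10), stood highest. POLA2 (-1.01, SE 0.31, adjusted p = 0.0068), POLE (-0.57, SE 0.06, adjusted p = 7.9e-09) and E2F2 (-0.47, SE 0.15, adjusted p = 0.0089) stood lowest. POLA2 rests on few reads, at 2.33 and 1.42 CPM in GFP and 0.838 and 1.01 in ZMYND8 cells. At 6 h 26 were higher and 17 lower (median 0.09), while 28.9% of all genes were called higher and 26.6% lower. POLA1 (1.41, SE 0.08, adjusted p = 7.0e-15), CCNE1 (0.90, SE 0.08, adjusted p = 3.6e-10) and DNA2 (0.85, SE 0.07, adjusted p = 1.7e-10) then stood highest. POLA2 (-1.39, SE 0.27, adjusted p = 9.4e-05), POLE (-0.62, SE 0.06, adjusted p = 1.2e-09) and MCM6 (-0.59, SE 0.05, adjusted p = 3.5e-11) then stood lowest.

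At 48 h most members were lower in the ZMYND8 cells: 12 were higher in ZMYND8_48h than in GFP_48h, 39 lower and 5 not called, with a median of 0.737-fold (log2 fold change -0.44), while 28.4% of all genes were called higher and 31.6% lower. CCNE1 (0.94, SE 0.08, adjusted p = 1.1e-10), POLA1 (0.77, SE 0.07, adjusted p = 2.9e-10) and E2F7 (0.41, SE 0.04, adjusted p = 5.7e-09) stood highest. POLA2 (-1.61, SE 0.23, adjusted p = 1.1e-06), POLE (-1.25, SE 0.06, adjusted p = 1.5e-16) and MCM6 (-1.23, SE 0.05, adjusted p = 1.2e-17) stood lowest. Higher without doxorubicin and lower at 48 h were 16 members: MCM10, CDC45, GINS4, WDHD1, PRIM2, POLD1, RFC4, FEN1, RRM1, RRM2, E2F1, E2F8, CLSPN, CHAF1A, UHRF1 and DTL. These are 28.6% of the members, and 2.06% of all genes tested had the same 2 calls.

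The difference between the 2 lines in their response was tested as an interaction, the change with doxorubicin in ZMYND8 cells minus that in GFP cells. At 48 h it was below 0 for all 56 members, and 47 passed, against 15.8% of all genes called lower and 12.7% called higher. The median was -0.65. MCM10 (-1.58, SE 0.09, adjusted p = 5.0e-13), ORC1, the largest ORC subunit (-1.14, SE 0.15, adjusted p = 1.6e-06), and CHAF1A, the large subunit of chromatin assembly factor 1 (-1.09, SE 0.09, adjusted p = 3.0e-10), were lowest, and E2F3 (-0.01, SE 0.08, adjusted p = 0.98), RFC2 (-0.07, SE 0.08, adjusted p = 0.52) and POLD2 (-0.08, SE 0.06, adjusted p = 0.32) highest. For most a smaller response was not a fall: 48 members rose in ZMYND8_48h over the untreated ZMYND8 cells. Licensing, deoxynucleotide supply and fork protection passed in every member (10 of 10, 4 of 4 and 7 of 7), the clamp group in 9 of 11, polymerases in 7 of 9, helicase activation in 5 of 7 and E2F factors and G1/S drivers in 5 of 8. The role medians ranged from -1.02 for fork protection and chromatin to -0.46 for E2F factors and G1/S drivers.

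At 6 h 19 members passed with a lower response in ZMYND8 cells and 0 with a higher one (median -0.21), against 5.52% of all genes called lower and 7.86% called higher (1730 and 822 genes with total counts, in place of 1037 and 1478). MCM10 (-0.98, SE 0.09, adjusted p = 4.4e-08), CDC25A (-0.65, SE 0.08, adjusted p = 5.1e-06) and CLSPN (-0.63, SE 0.10, adjusted p = 5.8e-05) were lowest, and POLA1 (0.18, SE 0.11, adjusted p = 0.32), MCM5 (0.10, SE 0.07, adjusted p = 0.39) and RFC2 (0.09, SE 0.08, adjusted p = 0.54) highest. The 6 h count depends on the library and the scaling: 9 passed without the second GFP library and 30 with total counts. Both interactions use the untreated GFP and ZMYND8 libraries, and so share them with each other and with the comparisons above.

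**Figure D4:**
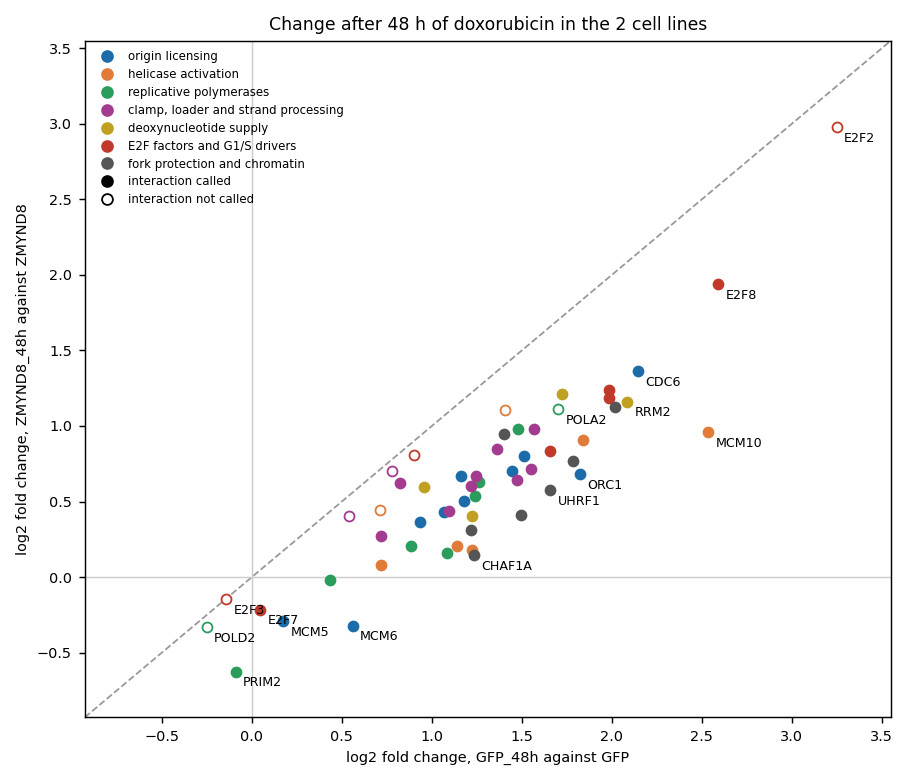
Log2 fold change of each member after 48 h of doxorubicin in GFP cells (x axis) and in ZMYND8 cells (y axis), coloured by role; filled points passed the interaction test and the dashed line marks equal response. All 56 points lie below the line, MCM10 farthest (2.54 and 0.96) and E2F3 nearest (-0.14 and -0.15, both above 0 with total counts).

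The values by library show where the lines parted. CDC6 rose in GFP cells from 42.6 and 43.3 CPM without doxorubicin to 132 and 128 at 6 h and then to 190.1 and 191 at 48 h. ZMYND8 cells began higher, at 90.2 and 81.4 CPM, and reached 179.8 and 173 at 6 h and then 221 and 219 at 48 h, above GFP at each time (log2 fold change at 48 h 0.21, SE 0.04, adjusted p = 1.1e-04). Its smaller response (interaction -0.79, SE 0.07, adjusted p = 1.3e-09) thus went with a higher starting level and not with a lower end. MCM2 began at 96.5 and 93.8 CPM in GFP and 91.0 and 89.8 in ZMYND8 cells. It reached 135 and 136 CPM at 6 h and then 276 and 267 at 48 h in GFP cells. ZMYND8 cells reached 112 and 119 CPM of MCM2 at 6 h and then 158 and 157 at 48 h. Every ZMYND8_48h value of MCM2 lay below every GFP_48h value (-0.78, SE 0.04, adjusted p = 1.9e-15).

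MCM10 is the member in which the lines differed most at the start. GFP cells went from 18.9 and 21.4 CPM without doxorubicin to 67.5 and 64.8 at 6 h and then to 111 and 123 at 48 h. ZMYND8 cells went from 53.4 and 54.9 CPM without doxorubicin to 86.5 and 94.0 at 6 h and then to 107 and 104 at 48 h. The end levels were close (-0.15, SE 0.05, adjusted p = 0.015), and the first GFP_48h library stood only just above the ZMYND8_48h libraries. GINS2 went from 29.5 and 25.0 CPM without doxorubicin to 40.8 and 40.5 at 6 h and then to 45.5 and 44.0 at 48 h in GFP cells. GINS2 in ZMYND8 cells went from 20.3 and 22.5 CPM without doxorubicin to 31.8 and 31.3 at 6 h and then to 28.9 and 29.5 at 48 h. It was lower in ZMYND8 cells at every time and its interaction did not pass (log2 -0.27, SE 0.11, adjusted p = 0.069).

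POLE2 went from 19.2 and 18.9 CPM without doxorubicin to 29.3 and 29.7 at 6 h and then to 42.3 and 47.7 at 48 h in GFP cells. POLE2 in ZMYND8 cells went from 20.8 and 18.6 CPM without doxorubicin to 24.8 and 22.0 at 6 h and then to 29.4 and 27.5 at 48 h. The lines overlapped without doxorubicin and were apart at 48 h (interaction -0.70, SE 0.12, adjusted p = 5.5e-05). PCNA stood at 204 and 186 CPM without doxorubicin, at 341 and 336 at 6 h and at 512 and 494 at 48 h in GFP cells. In ZMYND8 cells PCNA stood at 161 and 162 CPM without doxorubicin, at 243 and 239 at 6 h and at 292 and 289 at 48 h. The 48 h level of ZMYND8 cells was below the 6 h level of GFP cells. The interaction was -0.52 (SE 0.06, adjusted p = 1.4e-07). RFC3 went from 26.5 and 28.2 CPM without doxorubicin to 46.4 and 50.2 at 6 h and then to 80.6 and 81.6 at 48 h in GFP cells. RFC3 in ZMYND8 cells went from 43.9 and 43.5 CPM without doxorubicin to 66.8 and 62.6 at 6 h and then to 87.7 and 85.2 at 48 h. As with CDC6, the smaller RFC3 response (-0.59, SE 0.08, adjusted p = 2.7e-06) went with a higher start, and the end levels did not pass (0.09, SE 0.05, adjusted p = 0.11).

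RPA3 did not pass at 6 h in either line. It stood at 46.8 and 46.7 CPM without doxorubicin, at 47.8 and 45.8 at 6 h and at 69.5 and 66.4 at 48 h in GFP cells. RPA3 in ZMYND8 cells stood at 49.8 and 52.2 CPM without doxorubicin, at 53.8 and 51.3 at 6 h and at 68.6 and 66.6 at 48 h. Its rise at 48 h passed in both lines and the interaction did not (-0.13, SE 0.08, adjusted p = 0.21). RRM2 went from 118 and 115 CPM without doxorubicin to 216 and 223 at 6 h and then to 496 and 494 at 48 h in GFP cells. RRM2 in ZMYND8 cells went from 186 and 196 CPM without doxorubicin to 265 and 282 at 6 h and then to 425 and 429 at 48 h. RRM2 was thus higher in ZMYND8 cells at 0 and 6 h and lower at 48 h (interaction -0.93, SE 0.06, adjusted p = 4.8e-12). TYMS stood at 163 and 153 CPM without doxorubicin, at 231 and 223 at 6 h and at 316 and 298 at 48 h in GFP cells. TYMS in ZMYND8 cells stood at 136 and 144 CPM without doxorubicin, at 195 and 194 at 6 h and at 208 and 215 at 48 h (interaction -0.37, SE 0.06, adjusted p = 5.0e-05). All TYMS values of ZMYND8 cells were below those of GFP cells at the same time.

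**Figure D5:**
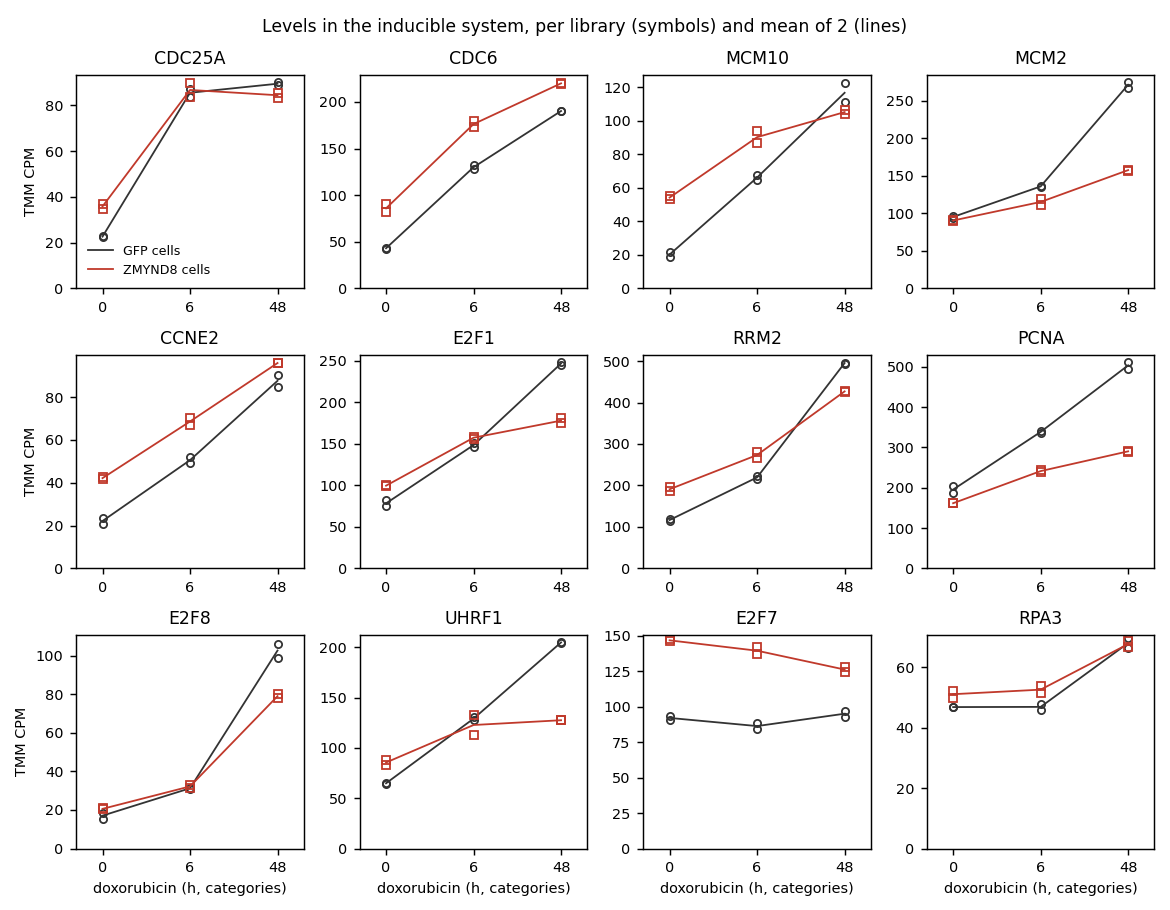
TMM-normalised CPM of 12 members in the inducible system at 0 (the untreated condition), 6 and 48 h of doxorubicin, with times as evenly spaced categories. Symbols are libraries, lines join the means of 2, and each y axis starts at 0. CDC25A levels off after 6 h in both lines, MCM10, E2F1, RRM2 and UHRF1 start higher in ZMYND8 cells and end lower, and MCM2 and PCNA start level or lower and fall behind.

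E2F1 is an activator and itself a target of the family. In GFP cells it went from 82.1 and 74.7 CPM without doxorubicin to 151 and 146 at 6 h and then to 245 and 249 at 48 h. E2F1 in ZMYND8 cells went from 100.1 and 99.2 CPM without doxorubicin to 159 and 156 at 6 h and then to 175 and 181 at 48 h. The lines were close at 6 h and apart at 48 h (interaction -0.82, SE 0.06, adjusted p = 1.7e-10). E2F8 was called higher at 6 h and rose further by 48 h in GFP cells. It went from 15.5 and 18.6 CPM without doxorubicin to 30.9 and 31.6 at 6 h and then to 98.9 and 106 at 48 h. E2F8 in ZMYND8 cells went from 20.3 and 20.8 CPM without doxorubicin to 31.5 and 32.8 at 6 h and then to 80.1 and 77.8 at 48 h (interaction -0.65, SE 0.10, adjusted p = 1.3e-05). E2F7, the other repressor, was higher in ZMYND8 cells throughout. It stood at 93.3 and 90.8 CPM without doxorubicin, at 88.1 and 84.5 at 6 h and at 97.2 and 92.9 at 48 h in GFP cells. E2F7 in ZMYND8 cells stood at 147 and 146 CPM without doxorubicin, at 142 and 137 at 6 h and at 128 and 125 at 48 h (interaction -0.26, SE 0.06, adjusted p = 0.0019). E2F2, the member with the highest fold change at 48 h in both lines, went from 5.47 and 7.07 CPM without doxorubicin to 13.1 and 10.5 at 6 h and then to 59.5 and 59.7 at 48 h in GFP cells. E2F2 in ZMYND8 cells went from 4.30 and 4.68 CPM without doxorubicin to 8.08 and 8.40 at 6 h and then to 35.6 and 35.6 at 48 h. Although E2F2 was lower in ZMYND8 cells at each time, its response did not pass the interaction test (-0.27, SE 0.17, adjusted p = 0.26).

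CDC25A was the early gene. It went from 22.8 and 22.4 CPM without doxorubicin to 83.7 and 87.3 at 6 h and then to 90.1 and 88.8 at 48 h in GFP cells. From a higher start of 34.8 and 36.8 CPM, ZMYND8 cells reached 83.6 and 89.8 at 6 h and then 85.6 and 83.2 at 48 h. The lines overlapped at 6 h and their 48 h levels did not pass (-0.08, SE 0.05, adjusted p = 0.14). CCNE2 went from 23.7 and 20.6 CPM without doxorubicin to 49.2 and 51.9 at 6 h and then to 84.8 and 90.3 at 48 h in GFP cells. CCNE2 in ZMYND8 cells went from 42.6 and 41.7 CPM without doxorubicin to 70.2 and 67.0 at 6 h and then to 96.0 and 95.7 at 48 h, above GFP cells at each time (interaction -0.80, SE 0.09, adjusted p = 5.9e-08). CCNE1 peaked at 6 h on this scale, at 9.02 and 9.60 CPM without doxorubicin, at 20.1 and 21.9 at 6 h and at 17.7 and 17.1 at 48 h in GFP cells. CCNE1 in ZMYND8 cells stood at 18.5 and 19.6 CPM without doxorubicin, at 41.3 and 37.2 at 6 h and at 32.3 and 34.6 at 48 h. Although it peaked with TMM, with total counts its change from 6 to 48 h did not pass in either line. Its interaction did not pass (-0.09, SE 0.13, adjusted p = 0.66).

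CLSPN went from 46.5 and 40.5 CPM without doxorubicin to 103 and 101 at 6 h and then to 169 and 183 at 48 h in GFP cells. CLSPN in ZMYND8 cells went from 70.6 and 66.1 CPM without doxorubicin to 95.6 and 112 at 6 h and then to 154 and 143 at 48 h. The lines overlapped at 6 h, after which GFP cells ended higher (interaction -0.89, SE 0.09, adjusted p = 3.0e-08). UHRF1 went from 64.5 and 65.2 CPM without doxorubicin to 130.4 and 128 at 6 h and then to 205 and 204 at 48 h in GFP cells. UHRF1 in ZMYND8 cells went from 83.0 and 88.1 CPM without doxorubicin to 113 and 133 at 6 h and then to 128 and 128 at 48 h. From 6 to 48 h UHRF1 rose in GFP cells (0.67, SE 0.05, adjusted p = 9.6e-12) and did not pass in ZMYND8 cells (0.06, SE 0.05, adjusted p = 0.36).

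Further genes of the pathway, listed apart from the 56, were read in the same fits. Of 34 other replication genes, 11 rose and 0 fell in DOX (median log2 fold change 0.58), 28 rose and 5 fell in GFP_48h (0.55) and 22 rose and 5 fell in ZMYND8_48h (27 and 1 with total counts), while the 48 h interaction was lower for 22 and higher for 2 (-0.41). The shares called higher were 32.4% in DOX against 2.98% of all genes, 82.4% in GFP_48h against 32.4% and 64.7% in ZMYND8_48h against 31.6%. In the 48 h interaction 64.7% were called lower, against 15.8% of all genes, and 5.88% higher, against 12.7%. DSCC1, a subunit of an alternative clamp loader, was the highest in DOX (1.90, SE 0.37, adjusted p = 0.018), GFP_48h (1.98, SE 0.06, adjusted p = 4.6e-20) and ZMYND8_48h (1.53, SE 0.06, adjusted p = 2.8e-17). ASF1A, a histone chaperone, was the lowest in GFP_48h (-0.56, SE 0.07, adjusted p = 6.4e-08).

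Of 28 regulators of the RB-E2F axis, 25 passed the filter in the transient system and 26 in the other. In inducible cells 12 rose and 7 fell in GFP_48h (17 and 6 with total counts) and 10 rose and 8 fell in ZMYND8_48h (15 and 7). These are 46.2% and 26.9% in GFP_48h against 32.4% and 31.8% of all genes, and 38.5% and 30.8% in ZMYND8_48h against 31.6% and 30.8%, the ZMYND8_48h shares being near those of all genes. The 48 h interaction was lower for 14 (53.8%, against 15.8% of all genes) and higher for 2 (7.69%, against 12.7%). CDKN1A (p21), the p53 target that inhibits CDK2, stood at 114 and 106 CPM in GFP, 236 and 231 in GFP_6h and 447 and 446 in GFP_48h. It stood at 133 and 135 CPM without doxorubicin, at 155 and 159 at 6 h and at 263 and 256 at 48 h in ZMYND8 cells (48 h interaction -1.07, SE 0.06, adjusted p = 3.6e-13), and rose from 73.8 and 45.1 CPM in Control to 251 and 253 in DOX. This CDK inhibitor rose in the comparisons in which most of the 56 genes rose, and its interaction had the sign of theirs. MYBL2, an E2F target and partner of the MuvB complex, was the highest of the list in DOX (2.25, SE 0.26, adjusted p = 0.0046) and rose in GFP_48h (1.85, SE 0.05, adjusted p = 3.9e-21). CCND1 was higher at 6 h (1.08, SE 0.04, adjusted p = 1.8e-17) and lower at 48 h (-0.36, SE 0.04, adjusted p = 2.2e-08) in GFP cells. RB1 fell in GFP_48h (-0.43, SE 0.05, adjusted p = 6.8e-09) and E2F4 rose at 6 h (0.53, SE 0.05, adjusted p = 7.3e-10) and was back at 48 h (0.02, SE 0.05, adjusted p = 0.68). CDKN2A and CDKN2B did not pass the filter.

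Of 14 genes of G2 and mitosis, 5 rose and 0 fell in DOX, 3 rose and 6 fell in GFP_6h, and 8 rose and 4 fell in GFP_48h (median 0.21, and 11 higher and 2 lower with total counts). In ZMYND8 cells 1 rose and 10 fell at 6 h and 3 rose and 10 fell at 48 h (4 and 7 with total counts), from a start at which 13 of 14 were higher than in GFP cells. In DOX 35.7% rose, against 2.98% of all genes. Without doxorubicin 92.9% were higher in ZMYND8 than in GFP cells, against 28.7% of all genes. The shares higher and lower were 21.4% and 42.9% in GFP_6h against 22.1% and 25.8% of all genes, and 57.1% and 28.6% in GFP_48h against 32.4% and 31.8%. In ZMYND8 cells they were 7.14% and 71.4% at 6 h against 21.8% and 19.0%, and 21.4% and 71.4% at 48 h against 31.6% and 30.8%. The 48 h interaction was lower for 13 of these 14 genes (92.9%, against 15.8% of all genes) and higher for 0, with a median of -0.49. Among the members 83.9% were called lower in that test. A negative interaction was thus not particular to the members. It was not the same pattern: in ZMYND8_48h most of these 14 genes fell (median -0.35), while most members rose (median 0.63). FOXM1 (1.25, SE 0.05, adjusted p = 1.1e-18) and AURKB (1.17, SE 0.05, adjusted p = 1.9e-16) rose and PLK1 (-0.91, SE 0.06, adjusted p = 5.3e-14) and CENPE (-0.83, SE 0.06, adjusted p = 5.9e-13) fell in GFP_48h. CCNA2, cyclin A, which serves S phase and mitosis, rose in GFP_48h (0.66, SE 0.05, adjusted p = 1.2e-12) and did not pass in ZMYND8_48h (-0.06, SE 0.05, adjusted p = 0.22). The proliferation marker MKI67 was lower at 6 h (-0.61, SE 0.06, adjusted p = 5.7e-10) and higher at 48 h (0.34, SE 0.05, adjusted p = 3.2e-06) in GFP cells.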

How the data were processed

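Poly(A) RNA-seq of MDA-MB-231 cells (6 transient and 12 inducible libraries) was taken from 2 tables of raw counts per gene that the authors deposited. Per the file headers these are read-pair counts by featureCounts 1.6.4 over GENCODE release 31 exons (hg38), counted as stranded. The submitters' processing notes also name Trim Galore, HISAT2 and DESeq2, whereas the study's methods name TopHat and cuffdiff, and which aligner made these counts is not settled here.

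The 56 members, the other gene lists and the named genes (a fixed panel of 17 members, the 3 highest and 3 lowest members of each comparison and a few of each other list) were chosen with earlier results of these data known. E2F2, PRIM2, POLA2 and CCNE1 were given by library because they were among those extremes. Counts were filtered with filterByExpr, scaled by TMM and tested with edgeR 4.0.16 (R 4.3.3) by the quasi-likelihood test with 1 mean per condition over all libraries of a table. The call was a Benjamini-Hochberg adjusted p of at most 0.05 over all genes tested (15697 transient, 18801 inducible). CPM are TMM-normalised, fold changes are log2, and SE is the standard error. An exact permutation test of 2 against 2 libraries cannot go below p = 0.333. All p-values measure the spread between these libraries, which may be partly technical.

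Replicate numbers paired the transient libraries (correlations of deviations 0.199 to 0.462, the near-identical second DOX and ZMYND8_DOX libraries among them), and not the inducible ones (-0.215 to 0.0837). Alternatives were the replicate block, RLE and total-count scaling, other filters, only the compared conditions, DESeq2 1.42.0 and leaving out libraries. The study's fold cutoffs (unadjusted p of at most 0.05 with an absolute log2 change of 1, or of 1.5 in the inducible table) were a further alternative. Promoters came from RefSeq. 1 further marker gene is not reported here. Each fit was tested on simulated data.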

Additional observations from a re-analysis of the deposited data

Results flagged for a closer look

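The doxorubicin response was tested for a difference between the ZMYND8 and the GFP cells by an interaction in edgeR, ZMYND8 minus GFP. Genes that passed are listed here because the lines differed in that test, but only those of the fixed panel of 17 members. Other members that passed, ORC1 and CHAF1A among them, are outside that panel and not listed. After 48 h, 47 of the 56 genes passed, all with a change in ZMYND8 cells below that in GFP cells. Not every one was a smaller rise: PRIM2 and E2F7 were not called in GFP cells and were called lower in ZMYND8 cells with TMM. The log2 interactions were -0.26 for E2F7, -0.37 for TYMS, -0.52 for PCNA, -0.59 for RFC3, -0.65 for E2F8, -0.70 for POLE2 and -0.71 for MCM2. They were -0.75 for CDC25A, -0.79 for CDC6, -0.80 for CCNE2, -0.82 for E2F1, -0.89 for CLSPN, -0.93 for RRM2, -1.08 for UHRF1 and -1.58 for MCM10.

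After 6 h, 19 of the 56 passed, again all with a change in ZMYND8 cells below that in GFP cells. GINS1, 1 of the 19, was not called in GFP cells and was called lower in ZMYND8 cells. The count depends on the library, being smaller without the second GFP library. The log2 interactions were -0.21 for PCNA, -0.26 for RFC3, -0.26 for E2F1, -0.39 for RRM2 and -0.47 for UHRF1. They were -0.49 for CCNE2, -0.55 for CDC6, -0.63 for CLSPN, -0.65 for CDC25A and -0.98 for MCM10. Both interactions rest on the same untreated libraries, and 1 selected population carried each construct, so the construct and the population cannot be told apart.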

How the results depend on the processing

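The 17 members described in detail had 184 values that passed in the edgeR test with TMM, and 154 of them kept the call in every alternative. Each value was counted once per alternative. Of these counts 2071 kept the call and the direction and 79 kept the direction but lost the call. The 1 that turned was E2F7 between 6 and 48 h in ZMYND8 cells, at 0.14 with total counts. Values that did not pass with TMM were not counted, so calls gained in an alternative are not included. Among the other members MCM6 between 6 and 48 h in GFP cells (0.14) and MCM4 between 6 and 48 h in ZMYND8 cells (0.17) also turned past the threshold with total counts. Leaving out 1 library at a time gave 22 to 40 members called for DOX against Control, 24 to 41 for ZMYND8_DOX against Control and 0 to 0 for ZMYND8_DOX against DOX. In GFP cells it gave 45 to 49 at 6 h, 53 to 54 at 48 h and 49 to 53 between the times. In ZMYND8 cells it gave 40 to 43, 49 to 51 and 36 to 40. Between the lines it gave 42 to 43 without doxorubicin, 38 to 43 at 6 h and 46 to 48 at 48 h, and for the interactions 9 to 21 at 6 h and 46 to 48 at 48 h. A lone library left in a condition was assumed to vary like the other conditions, and the share of all genes called in these fits is not given. Counting only the 36 members without exon overlap on the other strand left 27 called in DOX and 27 in ZMYND8_DOX. The study's cutoffs on fold change called 3 members at 6 h, 18 at 48 h and 2 between the times in GFP cells, 0, 2 and 1 in ZMYND8 cells, 0, 0 and 1 between the lines without doxorubicin, at 6 h and at 48 h, and 0 and 1 for the interactions at 6 h and 48 h. These cutoffs, which ask for a larger change by construction, called 0.675% to 11.8% of all genes in 1 direction in the inducible comparisons. Over all genes they called 1.41% higher at 6 h, 10.2% at 48 h and 11.8% between the times in GFP cells. In ZMYND8 cells the same shares were 0.675%, 10.1% and 11.8%. The share of members called was smaller than that of all genes in ZMYND8 cells and, between the times, in GFP cells. With total counts the 6 h interaction passed for 30 members. With the replicate block 49 members passed in DOX and 49 in ZMYND8_DOX, and in the inducible system, whose numbers did not pair, RPA1, E2F3 and RFC3 lost 1 call each. The causes were not tested. POLA2 stood at 0.838 to 2.33 CPM in the untreated inducible libraries, where few reads limit its values.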

Other observations

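Among the 6 inducible conditions the highest mean CPM of a member was in GFP_48h for 39 of the 56 genes, in ZMYND8_48h for 9, in ZMYND8_6h for 4, in GFP_6h for 2 and in ZMYND8 for 2. The lowest mean was in GFP for 33 and in ZMYND8 for 16. The median of the members' mean CPM was 43.3 in GFP, 59.8 in GFP_6h and 98.6 in GFP_48h, and 55.5, 69.0 and 79.0 in ZMYND8, ZMYND8_6h and ZMYND8_48h. In the transient system it was 30.6 in Control, 69.7 in DOX and 66.8 in ZMYND8_DOX. Compared per length, as CPM per kilobase of exon, the level of PCNA was the highest of the 56 in Control (81.1), GFP (139) and GFP_48h (359). TK1 stood at 76.4 in Control and 236 in GFP_48h on the same scale, and E2F2 at 0.614 in Control and 1.15 in GFP. These are levels of libraries scaled within 1 table and are not set across the 2 tables.

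Of the 14 genes of G2 and mitosis, 11 had a RefSeq promoter window, and 8 of these (72.7%) held a CHR word, 10 held CCAAT and 1 (9.09%) held an E2F word. Of the 34 other replication genes 28 had a window and 5 (17.9%) held an E2F word. These shares describe letters in windows and no test was run.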
